A study of Arabidopsis thaliana with 24 samples.

Results

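The response to iron loss was compared between leaves and roots of the rglg1 rglg2 double mutant of Arabidopsis thaliana, which carries mutations in a pair of genes for RING-type ubiquitin ligases and is called the mutant here. The labels do not name its alleles. The quantity tested for each probe set was the leaf response (leaf -Fe minus leaf +Fe) minus the root response (root -Fe minus root +Fe), on a log2 scale. The arrays were chosen by genotype from their labels, which gave 12 of the 24 arrays in the series. They formed 4 groups of 3 biological replicates, namely mutant roots on +Fe, mutant roots on -Fe, mutant leaves on +Fe and mutant leaves on -Fe. The other 12 arrays held the same groups of wild-type Col plants. All plants were of the Col ecotype, grew at 21 °C in continuous light, and were moved to the test medium at 10 days of age. The +Fe medium held 40 µM FeEDTA, and the -Fe medium held 100 µM of a pyridyl diphenyl triazine sulfonate, an iron chelator of the ferrozine type. Roots and leaves were harvested 3 days later, when plants were 13 days old. Total RNA was measured on Affymetrix ATH1 arrays, and the labels do not say how many plants were pooled for an array or whether the roots and leaves of a replicate came from the same plants.

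Roots and leaves use iron differently. Roots of Arabidopsis take it up by acidifying the soil, reducing ferric iron at the surface and releasing coumarins that dissolve and reduce it, and they sequester other metals that enter through the same transporter. Leaves spend most of their iron in chloroplasts, where photosystems, iron-sulfur proteins and heme enzymes depend on it. In both organs a cascade of bHLH transcription factors, small IMA peptides and BRUTUS-type ubiquitin ligases sets the response.

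Deposited values are centred on the median of all 24 arrays for each probe set, so a value of 0 is that median and no absolute level can be read. The labelled tissues matched their markers. The mean of 4 measured root markers (PRX72, PYK10, EXPA7 and EXPA18, of 17 listed) was 2.34 to 2.50 in mutant root arrays and -2.78 to -2.40 in leaf arrays. The mean of 4 measured leaf markers (RCA, PSAN, SBPASE and PRK, of 18 listed) was 2.09 to 2.70 in leaves. In roots it was -2.37 to -2.23 on +Fe and -3.00 to -2.81 on -Fe. RGLG1 and RGLG2 are named by no probe set used here, and the mutated genes were therefore not checked.

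Replicate 3 of the mutant leaves stood apart on both media. On +Fe it correlated across probe sets with replicates 1 and 2 at 0.880 and 0.905, against 0.967 between those 2. On -Fe the same values were 0.852 and 0.872, against 0.956. Root replicates correlated at 0.934 to 0.968 on +Fe and at 0.981 to 0.984 on -Fe. Many results that rest on the leaf arrays are therefore given with and without both leaf replicates 3. Where no such value follows, only the fit of all arrays is given. The fit without them keeps 2 arrays per leaf group and drops arrays that deviated in these same data. Leaving them out can lower the spread by choice, so its adjusted p-values are a description and not firmer calls. Among roots, replicate 3 on +Fe lay closer to the -Fe arrays than replicates 1 and 2 did, at 6.9 on the third axis of variation against 23.1 and 26.9, with the -Fe roots at -19.4 to -17.6.

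**Figure D1:**
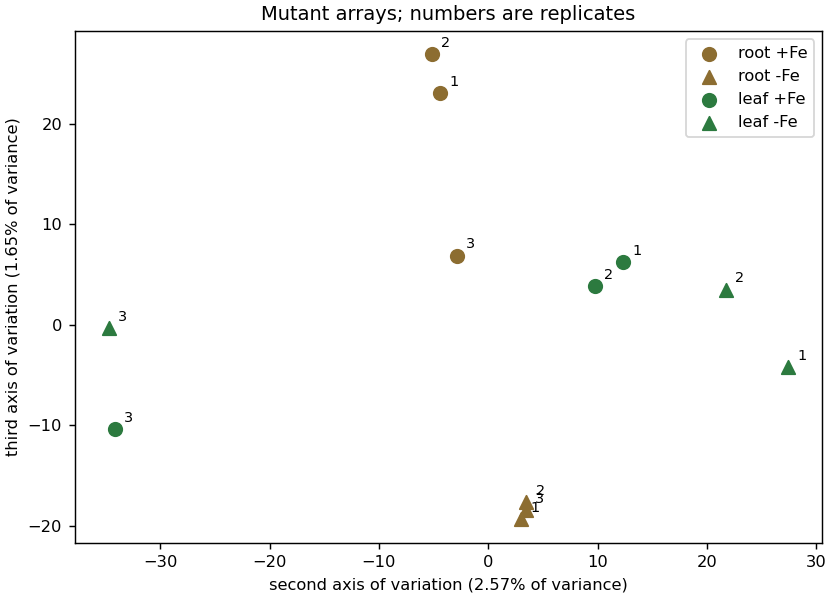
Position of the 12 mutant arrays on the second axis (horizontal, 2.57% of variance) and the third axis (vertical, 1.65%) of a principal component analysis of log2 values, both in units of the component score. The first axis, with 92.4% of variance, separated leaves from roots and is not drawn. Each point is 1 array with its replicate number. Both leaf replicates 3 lie near -34 on the horizontal axis, and the other leaf arrays lie between 9.8 and 27.4.

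The comparison asked which transcripts respond to iron loss in one organ more than in the other. Of 17810 probe sets tested, 145 (0.814%) differed between the tissue responses (limma, Benjamini-Hochberg adjusted p under 0.05). The response was more negative, or less positive, in leaves for 101 (0.567%) and more positive in leaves for 44 (0.247%). Most of the largest differences were negative, either from a rise in roots or from a fall in leaves. Of 47 called differences of at least 2 on the log2 scale, 40 were negative, and so were all 8 of at least 4, each of which had a called rise in roots and no call in leaves. The median difference over all probe sets was -0.04, and the median moderated standard error was 0.20. Without both leaf replicates 3 the fit called 642 probe sets, among them all 145 with the same sign, and the share with a more positive leaf response went from 30.3% to 56.7%. The count and the prevailing direction thus depend on those arrays. The count was 437 without +Fe root replicate 3, 294 without -Fe leaf replicate 3 and 96 without -Fe root replicate 3.

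In the same fit 331 probe sets (1.86%) responded in roots, of which 159 (0.893%) rose and 172 (0.966%) fell on -Fe. In leaves 111 (0.623%) responded, of which 36 (0.202%) rose and 75 (0.421%) fell. With equally numbered arrays treated as pairs within each tissue, the leaf count was 272. Without leaf replicates 3 it was 635, and without -Fe leaf replicate 3 alone it was 444. The root count was 658 without +Fe root replicate 3, 595 without -Fe leaf replicate 3, and between 166 and 186 without any other single root array. Across all probe sets the tissue responses correlated at r = 0.093, given as a description over probe sets of shared arrays. In the fit of all mutant arrays, no probe set was called in opposite directions in the 2 tissues. Called there in both with the same sign were 20 that rose and 15 that fell. Opposite calls did appear without leaf replicates 3. AT4G25030 was then called as a rise in roots (adjusted p = 0.012) and a fall in leaves (0.00302). AT5G01740 was called as a fall in roots (5.11e-05) and a rise in leaves (0.000955).

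The 145 differences were sorted by the tissue in which a response was called. The largest class, with 100 probe sets, responded in roots only. In 76 of these the transcript rose in roots, with a median root response of 1.41 (range 0.44 to 7.42) and a median leaf response of -0.05 (range -0.51 to 1.07). In the other 24 it fell in roots, with a median of -0.94 in roots and 0.22 in leaves. A further 19 responded in leaves only, of which 14 fell (median leaf response -1.33) and 5 rose (median 1.05). Another 15 responded in both tissues in the same direction, and in 11 neither tissue was called on its own. In bulk tissue, a change in RNA per cell and a change in the share of cells that carry the transcript cannot be told apart. A response without a call is not shown to be absent, so intervals are given for the leaf responses of the main genes.

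**Figure D2:**
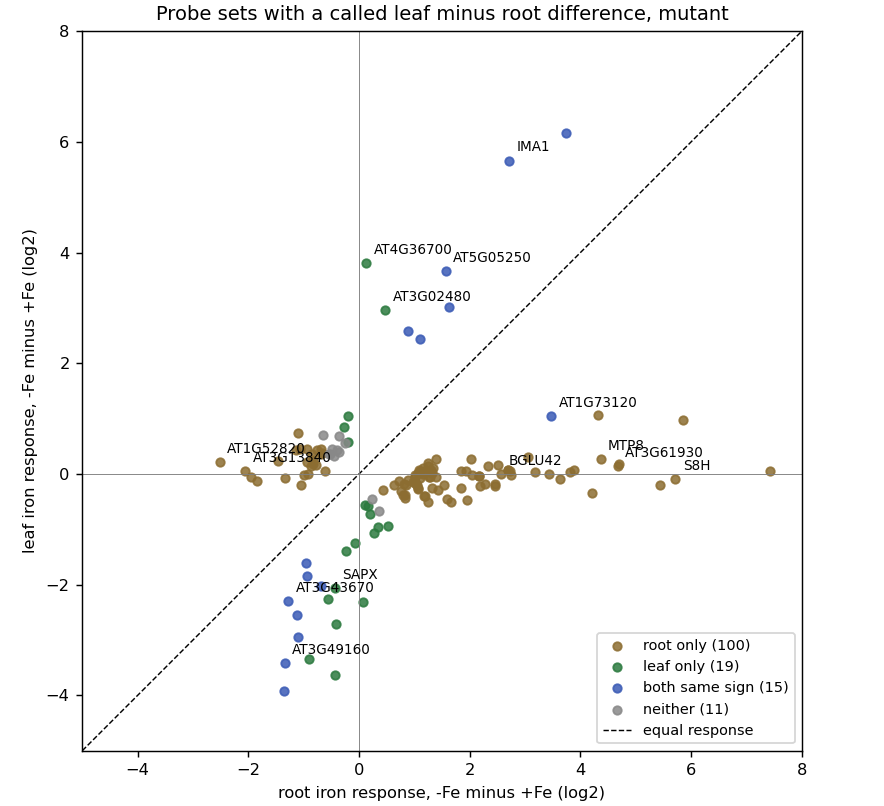
Root iron response (horizontal) and leaf iron response (vertical), both -Fe minus +Fe in log2, of the 145 probe sets with a called difference in the mutant. Each point is 1 probe set, coloured by the tissue in which a response was called, and the dashed line marks equal responses. Most points lie near the horizontal line at a leaf response of 0, with S8H at 5.72 in roots and an unnamed probe set further out, at 7.42. IMA1, at 2.71 in roots and 5.66 in leaves, lies above the dashed line.

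Coumarin genes gave the largest named difference. S8H (AT3G12900) encodes scopoletin 8-hydroxylase, which makes fraxetin, a catechol coumarin that mobilises iron. Its values in root replicates 1, 2 and 3 were 0.11, -0.11 and -0.13 on +Fe and 5.65, 5.61 and 5.76 on -Fe. In leaves they were 0.04, -0.07 and 0.01 on +Fe and -0.01, -0.15 and -0.15 on -Fe. The 3 -Fe root arrays stood far above all others, and the leaf groups overlapped. S8H rose 52.6-fold in roots (log2 5.72 ± 0.10 SE, n = 3 per group), and its leaf response was -0.10 (95% interval -0.31 to 0.12). The difference was -5.81 ± 0.14 (adjusted p = 3.34e-10), so the -Fe to +Fe ratio in roots was 56.3 times that in leaves. Only the unnamed probe set 253502_at differed more, at -7.36 ± 0.29 (adjusted p = 5.93e-08), with 7.42 in roots and 0.06 in leaves.

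BGLU42, a beta-glucosidase that releases coumarins from their glucosides in roots, followed the same course at a smaller size. In roots its values were 0.00, -0.20 and -0.07 on +Fe and 2.43, 2.45 and 2.55 on -Fe. In leaves the means were -0.07 ± 0.13 (SD) on +Fe and -0.07 ± 0.09 on -Fe. The leaf groups overlapped, and the difference was -2.57 ± 0.15 (adjusted p = 1.10e-06). UGT72E1, a glucosyltransferase of coniferyl aldehyde, rose 6.49-fold in roots. Its leaf values were spread from -0.29 to 0.27 on +Fe and from -0.60 to 0.55 on -Fe, with replicate 3 the lowest on both media, and the difference was -2.63 ± 0.36 (adjusted p = 0.00269).

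Of the 9 measured genes of the coumarin and phenylpropanoid list (18 loci), S8H, BGLU42 and UGT72E1 were called for the difference and the other 6 were not. The list median was -0.65, against -0.04 over all probe sets. Over all probe sets 0.814% were called for the difference, 0.893% as rises in roots and 0.202% as rises in leaves. Within tissues, 4 of the 9 were called as rises in roots and 0, near the share of all probe sets, in leaves. HCT, an acyltransferase early in the pathway, was the fourth, with a root response of 0.67, a leaf response of 0.02 and a difference of -0.65 ± 0.16 (adjusted p = 0.112). F6'H1, which makes the scopoletin precursor, had root values of 0.70, 0.54 and 0.83 on +Fe and 2.24, 2.24 and 2.38 on -Fe. Its leaf values were -1.15, -0.96 and -2.53 on +Fe and -0.52, -0.86 and -2.27 on -Fe. The root groups were well separated, but replicate 3 lay far below the others in both leaf groups. The root rise of 1.60 was not called (adjusted p = 0.0996), in a fit that pools the spread of roots and leaves. Without leaf replicates 3 the root rises of F6'H1 and of COSY, also on the list, were called (adjusted p = 3.32e-06 and 0.0139). The F6'H1 difference of -1.27 ± 0.61 was not called (adjusted p = 0.379). Without leaf replicates 3 that difference was -1.23 and called (adjusted p = 0.00295). S8H, BGLU42 and F6'H1 were also the 3 measured genes of the root iron uptake list (11 loci), which had a median of -2.57 with 2 called.

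Of the metal transport list, 2 genes were measured. MTP8 (AT3G58060), a vacuolar manganese transporter, had root values of -0.02, 0.35 and 0.02 on +Fe and 4.34, 4.53 and 4.57 on -Fe. Its leaf values were -0.39, -0.33 and -0.39 on +Fe and -0.15, -0.26 and 0.11 on -Fe. All 3 -Fe leaf arrays lay above the +Fe leaf arrays, by far less than in roots. MTP8 rose 20.6-fold in roots, its leaf response was 0.27 (95% interval -0.01 to 0.55), and the difference was -4.09 ± 0.18 (adjusted p = 9.23e-08). ZIP9, a zinc transporter family gene and the other measured gene of the 28 in the list, was called neither for the difference nor in a tissue.

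The other named genes with the largest negative differences were a mixed group of root-induced transcripts. AT3G61930 differed by -4.53 ± 0.53, AT3G07720 by -3.78 ± 0.34 and AT5G38820, an amino acid transporter family gene, by -3.44 ± 0.15. For AT5G38820 the root values were 0.34, 0.17 and 0.17 on +Fe and 3.74, 3.66 and 3.58 on -Fe, and the leaf means were -0.44 ± 0.16 and -0.45 ± 0.05 (SD). Its leaf groups overlapped, with a leaf response between -0.24 and 0.22 (95% interval). ATPMEPCRB, a pectin methylesterase that acts on the cell wall, differed by -3.15 ± 0.38, the cytochrome P450 gene CYP71B5 by -2.69 ± 0.29, AT4G19370 by -2.74 ± 0.36 and AT5G04730 by -2.47 ± 0.24. CYP71B5 was among the transcripts higher in leaves than in roots on +Fe, with root values of -3.13 to -2.69 and leaf values of 0.66 to 0.87, so the root rose towards the leaf level without reaching it (-0.77, -0.59 and -0.02 on -Fe). Of the genes called for the difference, AT1G73120 was the 1 named gene that rose in both tissues with the larger rise in roots, at 3.47 ± 0.14 in roots and 1.06 ± 0.14 in leaves (difference -2.42 ± 0.19). All 12 of these largest named differences stayed called without leaf replicates 3, at -5.79 to -2.40.

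**Figure D3:**
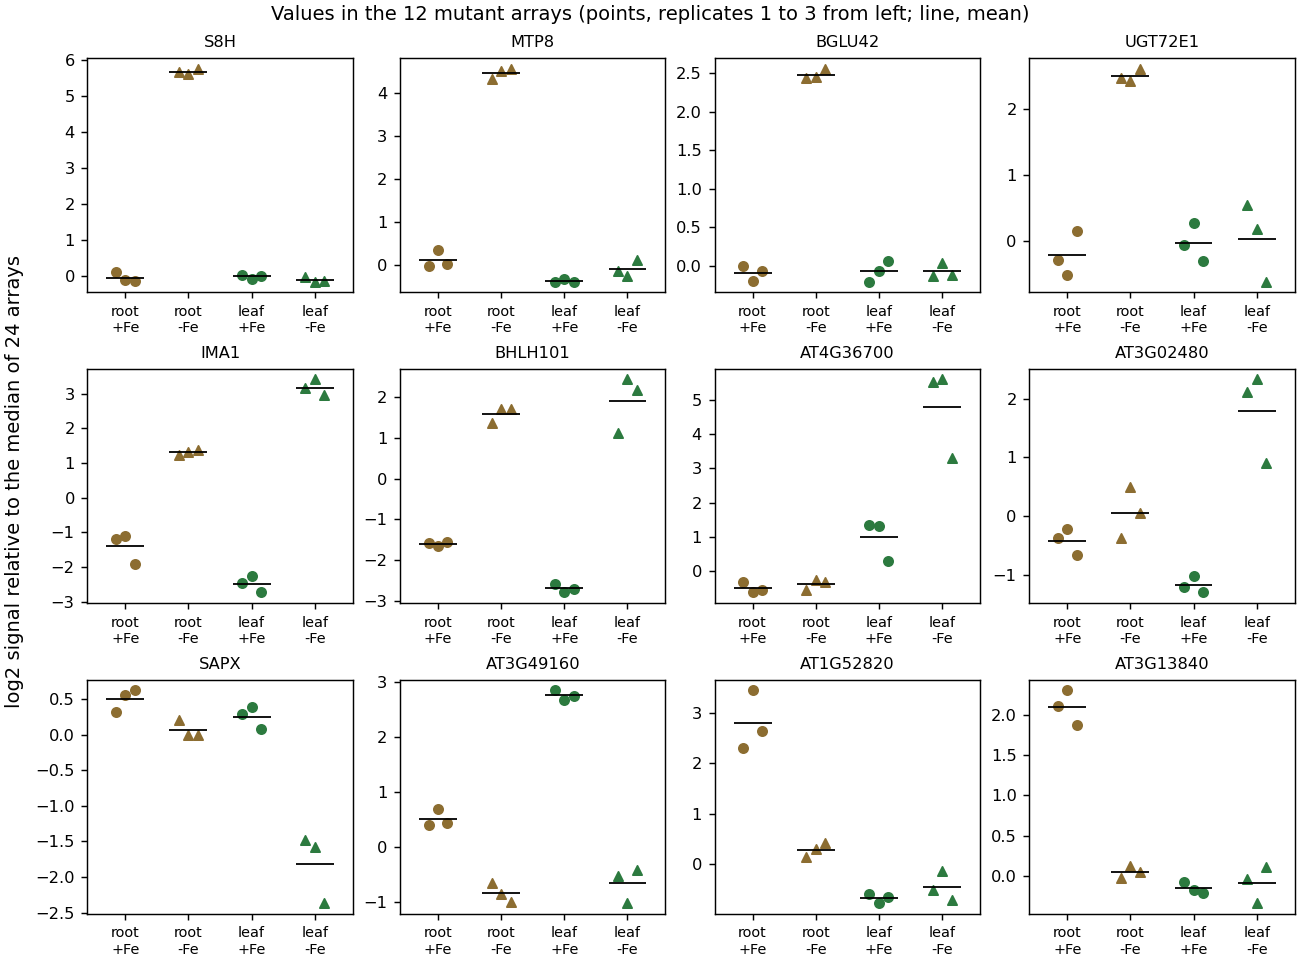
Values of 12 genes in the 12 mutant arrays, as log2 signal relative to the median of all 24 arrays (vertical axes, each with its own scale). Points are replicates 1 to 3 from left to right in each group of tissue and medium, and lines are group means. S8H, MTP8, BGLU42 and UGT72E1 were high in the -Fe root arrays alone, IMA1 and BHLH101 rose in both tissues, and SAPX was low in the -Fe leaf arrays.

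Among regulators of the iron response, IMA1, BHLH101 and PYE rose in both tissues. IMA1 (AT1G47400) encodes a short peptide that promotes iron uptake and signals low iron. Its values were -1.18, -1.12 and -1.92 in +Fe roots and 1.22, 1.33 and 1.37 in -Fe roots. In leaves they were -2.46, -2.27 and -2.74 on +Fe and 3.16, 3.41 and 2.95 on -Fe. The leaf groups thus lay below the roots on +Fe and above them on -Fe, with no overlap. IMA1 rose 6.55-fold in roots (log2 2.71 ± 0.20) and 50.7-fold in leaves (5.66 ± 0.20), and the difference was 2.95 ± 0.28 (adjusted p = 0.000143). It was 2.94 without leaf replicates 3.

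BHLH101, a subgroup Ib bHLH factor that partners FIT in switching on uptake genes, showed the same order without a call. In +Fe arrays its values were -1.58, -1.66 and -1.55 in roots and -2.59, -2.80 and -2.71 in leaves. On -Fe they were 1.37, 1.72 and 1.72 in roots and 1.13, 2.44 and 2.19 in leaves. Replicate 1 of the -Fe leaves was the lowest of its group and lay below the roots. The response was 3.20 ± 0.26 in roots and 4.62 ± 0.26 in leaves, and the difference was 1.42 ± 0.36 (95% interval 0.63 to 2.21, adjusted p = 0.122). Without leaf replicates 3 it was 1.28 (adjusted p = 0.0952). PYE, a bHLH repressor, rose by 1.11 ± 0.14 in roots and 1.48 ± 0.14 in leaves, and the difference of 0.36 had a 95% interval of -0.05 to 0.78.

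BTSL1 and BTSL2 are RING-type ubiquitin ligases with hemerythrin domains that limit the root uptake response. BTSL1 (AT1G74770) was measured by a pair of probe sets that gave the same root response and different leaf responses. On 262217_at the root means were 0.76 ± 0.15 (SD) on +Fe and 2.94 ± 0.31 on -Fe, and the leaf values were -0.81, -1.30 and -0.99 on +Fe and -1.07, -0.94 and -1.23 on -Fe. On 262218_at the root means were 1.27 ± 0.05 and 3.37 ± 0.08, and the leaf means were -3.65 ± 0.27 on +Fe and -2.04 ± 0.23 on -Fe. The leaf groups did not overlap there, and the leaf responses were -0.04 on 262217_at and 1.60 on 262218_at. The difference was therefore -2.22 ± 0.24 (adjusted p = 0.00033) on 262217_at and -0.51 ± 0.21 (adjusted p = 0.314) on 262218_at, and a tissue difference of BTSL1 rests on the first probe set alone. For BTSL2 (AT1G18910), root values were 0.88, 0.87 and 0.85 on +Fe and 2.02, 2.04 and 2.07 on -Fe. Its leaf values were -0.91, -0.89 and -1.12 on +Fe and -0.58, -0.68 and -1.30 on -Fe, where replicate 3 fell below the +Fe arrays. The difference of -1.06 ± 0.22 missed the threshold (adjusted p = 0.0537), and it was -0.91 and called without leaf replicates 3 (adjusted p = 0.00164).

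Of 11 probe sets for the 10 measured iron regulators (20 loci), 1 was called with a more positive leaf response and 1 with a more negative one, with a median of 0.14. Over all probe sets these shares were 0.247% and 0.567%. Within tissues, 6 rose in roots and 4 in leaves, against 0.893% and 0.202% of all probe sets, and none fell. The bHLH genes of subgroups IVb and IVc other than PYE (bHLH34, bHLH104, ILR3, bHLH115 and bHLH121), which act above the Ib genes, were called neither in a tissue nor for the difference. Without leaf replicates 3 a leaf rise of bHLH115 was called, at 0.43 (adjusted p = 0.0311).

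**Figure D4:**
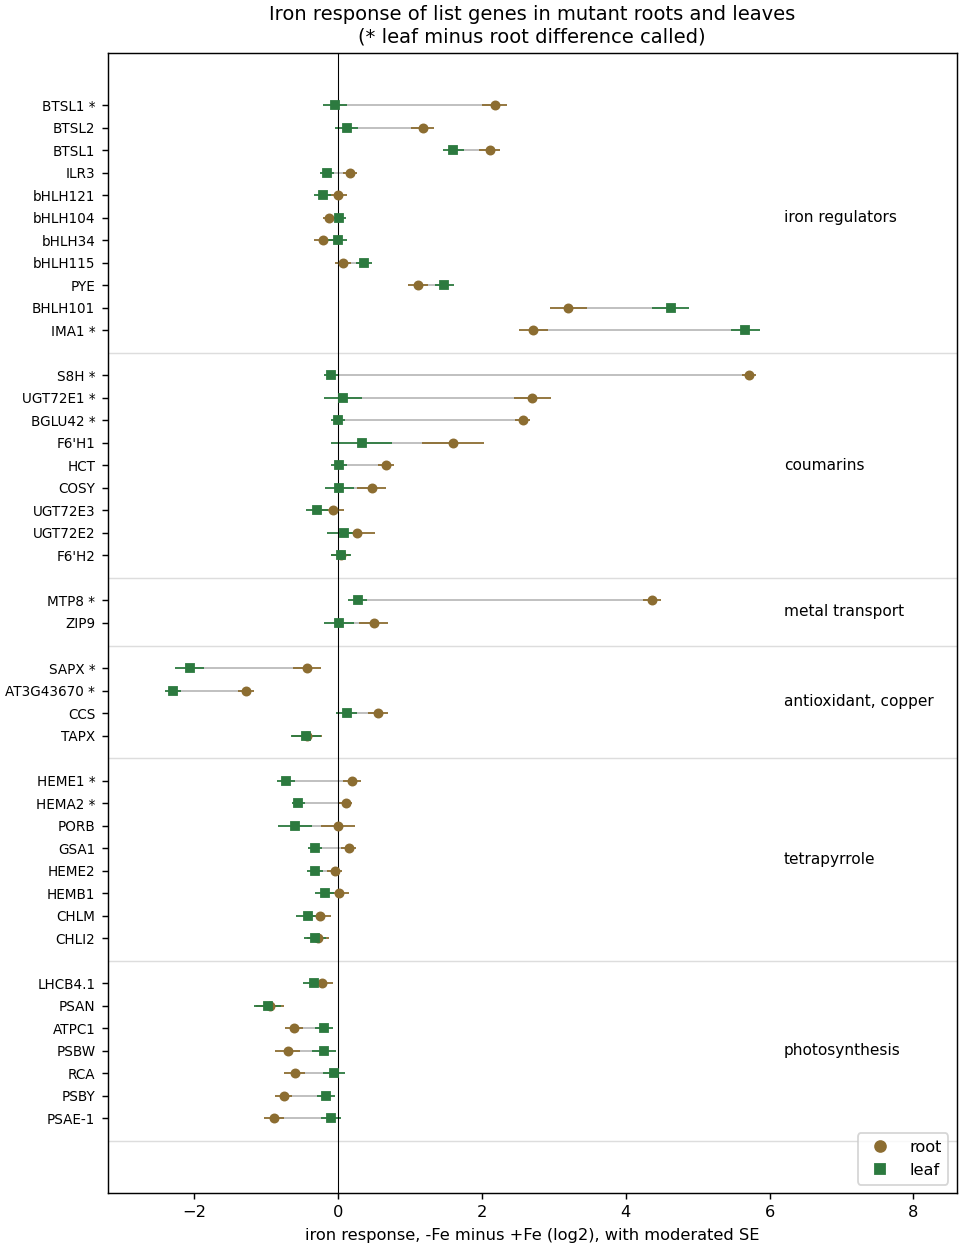
Iron response (-Fe minus +Fe, log2, horizontal) of measured genes in 6 lists, in mutant roots (circles) and leaves (squares), with the moderated standard error. Grey lines join the tissues, an asterisk marks a called difference, and BTSL1 appears once for each of its probe sets. IMA1 and BHLH101 lie to the right in both tissues, S8H, UGT72E1, BGLU42 and MTP8 in roots, and the SAPX and AT3G43670 squares lie below -2.

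On the leaf side, AT4G36700, a cupin family gene, gave the largest positive difference. Its root values were -0.31, -0.61 and -0.55 on +Fe and -0.53, -0.24 and -0.31 on -Fe, which overlap. Its leaf values were 1.34, 1.33 and 0.29 on +Fe and 5.51, 5.58 and 3.29 on -Fe, with replicate 3 the lowest of both leaf groups. It rose 14.0-fold in leaves (log2 3.81 ± 0.49), and the difference was 3.67 ± 0.69 (adjusted p = 0.0261). Without leaf replicates 3 the difference was 4.08 (adjusted p = 5.07e-08), from 2 arrays per leaf group. The call was lost under 8 of 23 alternatives, 7 of which left out a root array or -Fe leaf replicate 1 or 2. Over all 23 the value ran from 3.28 to 4.43, with adjusted p up to 0.087.

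AT3G02480, of the late embryogenesis abundant family that protects cells in dehydration, had leaf values of -1.20, -1.02 and -1.30 on +Fe and 2.12, 2.33 and 0.90 on -Fe. The root groups overlapped, at -0.37, -0.23 and -0.66 on +Fe and -0.37, 0.49 and 0.06 on -Fe. The difference was 2.48 ± 0.45 (adjusted p = 0.0199), and 2.86 without leaf replicates 3. The call was lost without any 1 of 5 arrays, with adjusted p up to 0.0772 and a value of at least 2.21. It was the 1 call for the difference among 4 genes measured of the 15 on the abscisic acid and dehydration list. The share over all probe sets was 0.814%. COR15A, COR15B and COR47 were called in neither tissue.

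Both tissues raised AT5G05250, but leaves more. Its root values were -0.64, -0.72 and -1.29 on +Fe and 0.71, 0.66 and 0.71 on -Fe, and its leaf values were -2.15, -2.09 and -1.71 on +Fe and 1.68, 1.75 and 1.59 on -Fe. As for IMA1, leaves lay below roots on +Fe and above them on -Fe. The response was 1.57 ± 0.16 in roots and 3.66 ± 0.16 in leaves, with a difference of 2.09 ± 0.23 (adjusted p = 0.000431). AT3G18280, a lipid transfer protein family gene, rose in leaves only, by 1.05 ± 0.14, with a difference of 1.25 ± 0.20 (adjusted p = 0.00879).

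Leaf falls included genes for enzymes that carry heme or copper or make tetrapyrroles. SAPX, the stromal ascorbate peroxidase, a heme enzyme that removes hydrogen peroxide in plastids, had leaf values of 0.29, 0.39 and 0.08 on +Fe and -1.49, -1.59 and -2.37 on -Fe. In roots the means were 0.50 ± 0.16 (SD) on +Fe and 0.07 ± 0.12 on -Fe. Neither tissue's groups overlapped, but the leaf arrays lay much further apart. SAPX fell by 2.06 ± 0.20 in leaves, a 4.18-fold drop, and its root response of -0.43 was not called (adjusted p = 0.384). Without leaf replicates 3 this root fall was called (adjusted p = 0.0296). The difference was -1.63 ± 0.28 (adjusted p = 0.0139), and -1.44 without leaf replicates 3. It lost its call without root replicate 1 of either medium (adjusted p up to 0.0561).

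AT3G43670, which belongs to the copper amine oxidases, was lower on -Fe in both tissues. It fell by 1.28 ± 0.12 in roots and 4.91-fold in leaves. Leaf values were 1.09, 0.96 and 0.97 on +Fe and -1.13, -1.30 and -1.42 on -Fe, against 0.70, 0.70 and 0.92 and then -0.68, -0.37 and -0.46 in roots. The difference was -1.02 ± 0.16 (adjusted p = 0.00913), and -0.60 after quantile normalization, where it was not called (adjusted p = 0.111). SAPX and AT3G43670 were the 2 calls for the difference among 4 measured genes of the antioxidant and copper list (17 loci). The share over all probe sets was 0.814%. TAPX, the thylakoid ascorbate peroxidase, and CCS, the copper chaperone of superoxide dismutase, were called in neither tissue. Without leaf replicates 3 a root fall of TAPX (adjusted p = 0.0359) and a root rise of CCS (adjusted p = 0.00682) were called.

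AT3G49160, of the pyruvate kinase family, gave the most negative difference among the named genes that fell. Its leaf values were 2.86, 2.69 and 2.76 on +Fe and -0.53, -1.02 and -0.42 on -Fe, and its root values were 0.40, 0.69 and 0.45 on +Fe and -0.65, -0.85 and -0.99 on -Fe. The leaves lay far above the roots on +Fe, and on -Fe the tissues overlapped. It fell by 3.42 ± 0.16 in leaves and by 1.34 ± 0.16 in roots, with a difference of -2.08 ± 0.22 (adjusted p = 0.000317). AT4G25030 fell in leaves by 0.94 ± 0.12, and the difference was -1.48 ± 0.17. Its root response of 0.53 was not called (adjusted p = 0.0508), but it was called without leaf replicates 3 (adjusted p = 0.012).

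Among tetrapyrrole genes, which lead to heme and chlorophyll, HEME1 and HEMA2 were called. HEME1, a uroporphyrinogen decarboxylase, had leaf values of 1.46, 1.48 and 1.59 on +Fe and 0.65, 0.68 and 1.02 on -Fe. In roots the means were -0.95 ± 0.18 (SD) and -0.76 ± 0.07, and the difference was -0.92 ± 0.18 (adjusted p = 0.0301). HEMA2, a glutamyl-tRNA reductase at the entry of the pathway, differed by -0.66 ± 0.13 (adjusted p = 0.0349), with a leaf response of -0.55 ± 0.09. Both calls were fragile, lost under 11 and 13 alternatives, most of them with 1 array left out, with adjusted p up to 0.111 and 0.124. These were 2 of 8 measured genes (27 loci), against 0.814% of all probe sets called for the difference. The other 6 were called in neither tissue. Of those 6, PORB had a called leaf fall without leaf replicates 3, at -0.80 (adjusted p = 0.0316). The list median was -0.37. The mean of the 4 leaf markers moved in the same leaf arrays, from 2.61 to 2.70 on +Fe to 2.09, 2.13 and 2.54 in -Fe replicates 1, 2 and 3. Its part in these falls was not tested.

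A further 24 positive differences came with a called fall in roots and no call in leaves. AT1G52820, of the 2-oxoglutarate-dependent oxygenase family, had root values of 2.31, 3.45 and 2.63 on +Fe and 0.14, 0.30 and 0.41 on -Fe. Its leaf values, from -0.77 to -0.59 on +Fe and from -0.70 to -0.14 on -Fe, overlapped. It fell by 2.51 ± 0.24 in roots, and the difference was 2.73 ± 0.34 (adjusted p = 0.000999). AT3G13840, a GRAS family gene, had root values of 2.11, 2.31 and 1.87 on +Fe and -0.03, 0.12 and 0.04 on -Fe. It fell by 2.05 ± 0.14 in roots, with overlapping leaf groups and a difference of 2.11 ± 0.19 (adjusted p = 7.62e-05). Both genes were above the leaf arrays in +Fe roots, and on -Fe their root values came close to or within the leaf range.

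AT5G01740 moved in opposite directions, although only its fall in roots was called. Root values were 0.59, 0.98 and 0.63 on +Fe and -0.38, -0.44 and -0.31 on -Fe, and leaf values were -0.71, -0.74 and -0.41 on +Fe and 0.34, 0.28 and -0.27 on -Fe. The groups of each medium did not overlap in either tissue. The root response was -1.11 ± 0.17 (adjusted p = 0.00342) and the leaf response 0.74 ± 0.17 (adjusted p = 0.0927), with a difference of 1.85 ± 0.24 (adjusted p = 0.00154). Without leaf replicates 3 the leaf response was 1.04 and called (adjusted p = 0.000955). Smaller positive differences with a called fall in roots were found for AT5G57785 (1.57 ± 0.33), AT1G24575 (1.39 ± 0.23) and AT2G25510 (1.16 ± 0.23). The calls of AT5G57785 and AT2G25510 were lost under 8 and 12 alternatives, at adjusted p up to 0.163 and 0.122.

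Of the 11 differences in which neither tissue was called, 9 were positive, with a root median of -0.45 and a leaf median of 0.43. The named ones included AT1G52050, a jacalin-type lectin family gene, with -0.65 in roots, 0.70 in leaves and a difference of 1.35 ± 0.25 (adjusted p = 0.0252). AT5G04080 (1.04 ± 0.20), AT3G17380 (0.93 ± 0.19) and AT5G22580 (0.91 ± 0.18) had adjusted p-values of 0.0339 to 0.0385. Each of these 4 calls was lost when most single arrays were left out, at adjusted p up to 0.134. Without leaf replicates 3 the root falls of AT1G52050, AT3G17380 and AT5G22580 were called (adjusted p = 0.0236 to 0.0395). When a response of at least 1 stood in for a tissue call, the class of neither held 43 of the 145 and the class of roots only held 74.

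None of the 7 measured nuclear photosynthesis genes (43 loci) was called for the difference, with a list median of 0.50. Over all probe sets 0.814% were called for the difference. Within tissues, 4 fell in roots and 1 fell in leaves, against 0.966% and 0.421% of all probe sets. PSAN, a photosystem I subunit, fell in both, by 0.95 in roots and by 0.98 in leaves. PSAE-1, another photosystem I subunit, had root values of -2.22, -2.24 and -2.51 on +Fe and -3.38, -3.25 and -3.02 on -Fe, and its difference was 0.80 ± 0.19 (adjusted p = 0.0982). ATPC1, of the chloroplast ATP synthase, also fell in roots. PSBY, a photosystem II protein, fell by 0.76 in roots, with a difference of 0.59 (adjusted p = 0.18). These root values lay far below those of leaves, and the leaf markers RCA, PSAN, SBPASE and PRK moved the same way in roots, to a mean of -3.00 to -2.81 on -Fe. RCA and PSAN belong to both lists, and the part of leaf-type RNA in root samples in these falls was not tested.

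HSP17.6C, a small heat shock protein, fell in roots from 2.04, 1.72 and 1.67 on +Fe to 0.50, 0.44 and 0.84 on -Fe. Its leaf groups overlapped, and the difference of 1.31 ± 0.27 missed the threshold (adjusted p = 0.0526). Of the remaining lists, iron storage had no measured gene. Auxin (5 measured), root hair (4), plastid iron-sulfur assembly (2), defence (2) and clock (1) had 0 calls for the difference or in either tissue. Over all probe sets 0.814% were called for the difference, 1.86% in roots and 0.623% in leaves. In lists this small, 0 calls are therefore not read as a lack of response. Of the tissue marker lists, PSAN was the 1 gene called, as a fall in each tissue. Without leaf replicates 3 the root falls of RCA and SBPASE were called as well (adjusted p = 0.0302 and 0.0331). A measure of RNA ends moved with the root response. The difference between 5′ and 3′ control probe sets, over 5 pairs, was -0.01 ± 0.15 (SD, n = 3) in +Fe roots and 0.19 ± 0.02 in -Fe roots, against 0.04 ± 0.09 and -0.09 ± 0.08 in leaves, and its part in the results was not tested.

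Whether the tissue difference itself depends on the ligases was tested as the mutant difference minus the Col difference, over all 24 arrays. By limma 0 of 17810 probe sets (0%) passed, 1826 (10.3%) had an unadjusted p under 0.05, and the smallest adjusted p was 0.147. The count was 101 without mutant +Fe root replicate 3, and 2 without Col -Fe root replicate 3 or Col -Fe leaf replicate 2. Fitted in the same model, 311 probe sets (1.75%) were called in Col (204 without Col -Fe root replicate 2) and 330 (1.85%) in the mutant, of which 122 were called in both with the same sign. Of the 145 differences called in the mutant arrays, 140 (96.6%) had the same sign in Col, against 53.7% over all probe sets, and 98 were also called there. In 106 of the 145 the Col value was closer to 0, but the 145 were chosen by their mutant values, so nothing is read from that count.

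Values in Col lay near those of the mutant for some main genes and further from them for others, and no gene was called for the difference between genotypes. The difference in Col was -5.21 ± 0.21 for S8H, -4.04 ± 0.17 for MTP8, -2.58 ± 0.19 for BGLU42 and -3.34 ± 0.16 for AT5G38820. It was 4.27 ± 0.40 for AT3G02480 (2.48 in the mutant), 4.74 ± 0.59 for AT4G36700 (3.67), 0.95 ± 0.26 for AT5G05250 (2.09) and -2.41 ± 0.26 for SAPX (-1.63). For IMA1 it was 2.13 ± 0.45 in Col, and the mutant value was 0.82 ± 0.63 higher (adjusted p = 0.676). BHLH101, with 1.42 and no call in the mutant, had 2.25 ± 0.38 in Col and was called there (adjusted p = 0.00117), while the genotypes differed by -0.83 ± 0.53 (adjusted p = 0.608). F6'H1, with -1.27 in the mutant, had -0.19 ± 0.56 in Col, with no call in either.

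The 5 named genes with the smallest p-values for mutant minus Col are given as values and not as calls. CDI had 0.36 in the mutant and 1.37 in Col, a value of -1.01 ± 0.18 (adjusted p = 0.147). Its leaf values on -Fe ran from 0.92 to 1.09 in mutant arrays and from 1.82 to 1.88 in Col arrays, which did not overlap. AT5G58660 had a value of 1.54, with leaf values on -Fe between 0.12 and 0.55 in mutant arrays and between -1.25 and -0.49 in Col arrays. AT1G06830 had 1.79, AT2G39130 had -1.37 and AT3G01175 had -1.52.

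**Figure D5:**
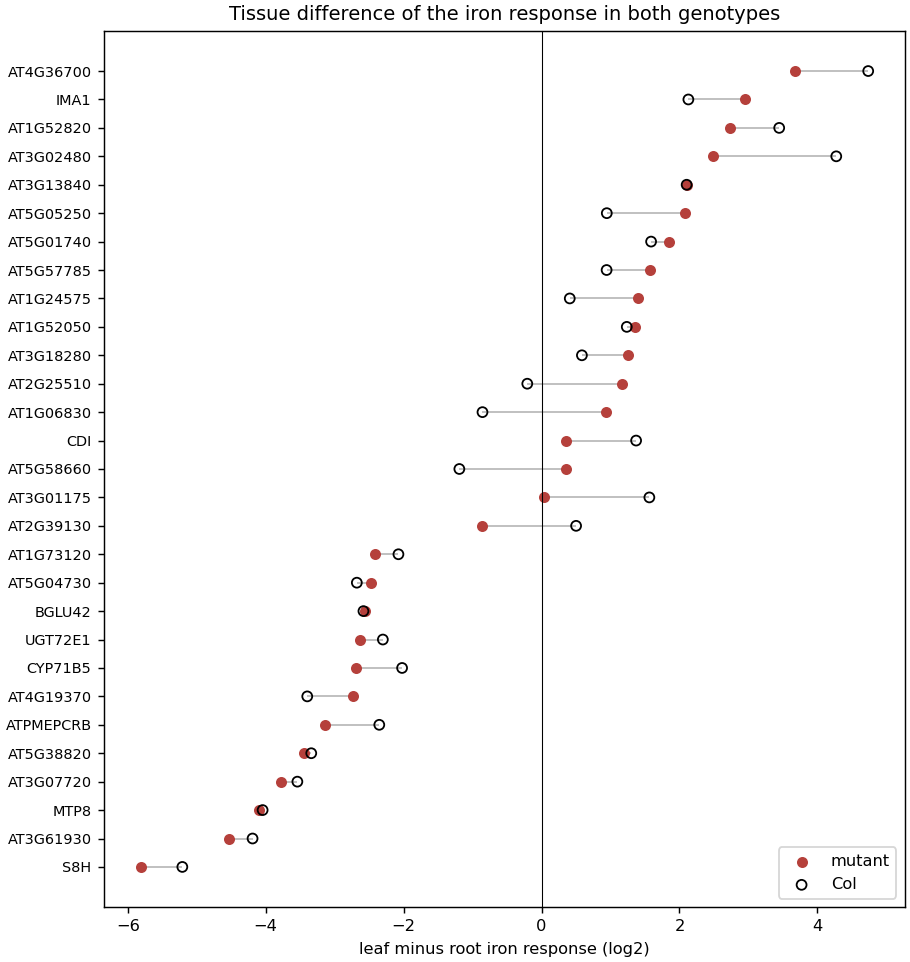
Leaf minus root iron response (log2, horizontal) in the mutant (filled) and in Col (open). Genes are the 12 named ones with the largest called differences in each direction in the mutant. The 5 with the smallest p-values for the genotype comparison are added. Lines join the genotypes. The points of S8H (-5.81 and -5.21), MTP8 and AT3G13840 lie close together, and AT3G02480 (2.48 and 4.27) and AT1G06830 lie further apart, with no called difference between genotypes.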

How the data were processed

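Per the labels, total RNA extracted with Trizol was labelled as biotinylated cRNA. Values were deposited by the authors as log2 signals in the table of the series. They were made with RMA, per the submitters' processing notes, and its version is not given in the sources used here. For every probe set the median over the 24 arrays was 0 within 1e-05, so values are relative, no filter on low signal was possible, and which arrays were normalized together is not given in the sources used here. Of 17854 probe sets, 44 controls were left out. A single gene was named for 9869 by the platform's gene IDs (9822 matched the reference annotation TAIR10.1), several for 353 and none for 7588. Symbols of 10 loci, among them S8H, MTP8, F6'H1, BTSL1, BTSL2, IMA1, COSY and HSP17.6C, come from the gene lists, and families of loci without a symbol are background knowledge. All columns matched a sample.

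Linear models with 1 mean per group were fitted by lmFit and eBayes of limma 3.58.1, under R 4.3.3, to the 12 mutant arrays (8 residual degrees of freedom) or, for Col and mutant minus Col, to all 24 (16 degrees). P-values are two-sided, adjusted by Benjamini-Hochberg over 17810 probe sets within each of the 5 comparisons, with 0.05 as threshold and no minimum fold. Errors beside log2 changes are moderated standard errors, and intervals are 95%. The fit of the 12 mutant arrays was checked on simulated arrays with independent noise and 1 spread per probe set. That check does not cover deviations shared by arrays or unequal spread between groups. The number of arrays limits the precision. The labels call replicates biological but do not describe their source. Each p-value tests a difference against the spread between these arrays, pooled over the groups of a fit and moderated across probe sets.

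Deviations from group means of equally numbered arrays correlated at 0.39, 0.44 and 0.60 between leaf groups and at most 0.05 between root groups. By this measure the numbers matched between leaf arrays but not between root arrays. The main fits used no pairing. The replicate block within tissue paired equally numbered arrays in roots as well as in leaves. Unequally numbered leaf arrays reached 0.23, 0.35 and -0.42 for replicates 1, 2 and 3. Replicate 3 stood apart in both leaf groups, so these correlations cannot show that the numbers pair plants. The genes named were the 12 largest called differences in each direction with a single named gene, the 4 largest in each class, called or needed members of 17 lists (63 of 276 loci measured), and, for mutant minus Col, the 5 smallest p-values. The gene lists, the comparison and the members named were chosen with earlier results of these data known. Alternatives were array weights, replicate blocks, quantile normalization, array medians set to 0, robust eBayes, all 24 arrays in 1 fit, a minimum range of 1 and leaving arrays out. The fit without replicate 3 of all 4 groups was added after seeing the data. The fit without leaf replicates 3 also leaves out arrays that stood apart in these data. Per-gene sequences were not used here.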

Additional observations from a re-analysis of the deposited data

Results flagged for a closer look

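The leaf and root responses of the mutant differed, by the test of the difference itself, for 145 probe sets. The 12 named genes with the largest such differences in each direction are listed here because that test separated the tissues. With a larger root response or a larger fall in leaves were S8H (-5.81), AT3G61930 (-4.53), MTP8 (-4.09), AT3G07720 (-3.78), AT5G38820 (-3.44), ATPMEPCRB (-3.15), AT4G19370 (-2.74), CYP71B5 (-2.69), UGT72E1 (-2.63), BGLU42 (-2.57), AT5G04730 (-2.47) and AT1G73120 (-2.42). With a larger leaf response or a larger fall in roots were AT4G36700 (3.67), IMA1 (2.95), AT1G52820 (2.73), AT3G02480 (2.48), AT3G13840 (2.11), AT5G05250 (2.09), AT5G01740 (1.85), AT5G57785 (1.57), AT1G24575 (1.39), AT1G52050 (1.35), AT3G18280 (1.25) and AT2G25510 (1.16). Values are leaf minus root iron responses in log2.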

How the results depend on the processing

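The count of 145 called tissue differences was 330 with all 24 arrays in the fit, 389 with a replicate block within tissue, 3828 with array weights, 642 without both leaf replicates 3 and 904 without replicate 3 of all 4 groups. A replicate block shared by the tissues gave 156. The root count of 331 was 594, 660, 4856, 1116 and 1782 under those 5 settings in that order, and the leaf count of 111 was 207, 272, 1900, 635 and 582. With array weights set for each tissue, roots gave 1289 and leaves 65. For mutant minus Col the count of 0 was 1344 with array weights and 1 without the mutant leaf replicates 3, and the Col count of 311 was 936 and 664. Without single arrays, the tissue difference gave 96 (without -Fe root replicate 3) to 437 (without +Fe root replicate 3), and 294 without -Fe leaf replicate 3. Roots gave 166 to 658, leaves 80 to 444, mutant minus Col 0 to 101 (without mutant +Fe root replicate 3), and Col 204 to 447. The cause of these shifts was not tested. The 35 called differences followed singly include the unnamed probe set 253502_at and the largest differences, so they do not describe all 145. Each was run under 23 alternatives, HEMA2 under 22. Of the 35, 23 were called under every alternative run, 12 lost the call under at least 1, and 0 changed direction. AT4G36700 lost it under 8, AT3G02480 under 5, SAPX under 2, HEME1 under 11 and HEMA2 under 13. Absolute levels, and genes on unnamed probe sets, cannot be read from these values.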
